A study of Mus musculus with 18 samples.

Results

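The 10 genes described here code for the abundant folding helpers of the endoplasmic reticulum (ER): Hspa5, Hsp90b1, Calr, Canx, Pdia3, Pdia4, Pdia6, Dnajb9, Sdf2l1 and Hyou1. Every probe set whose platform gene symbol is one of these names was taken, which gave 22 of the 45101 probe sets on the array. Of these, 21 passed the filter on low signal, and all 10 genes were among the 11018 genes tested. The rule matches gene symbols and sets no threshold on a measured value.

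Liver RNA came from offspring of DUK mice, an outbred line bred from 4 outbred and 4 inbred lines. Dams ate isoenergetic diets with 20% protein (control) or 40% protein (high protein). The control groups had the control diet in pregnancy and in lactation. The HPpreg groups had the high protein diet in pregnancy and the control diet in lactation, and the HPlact groups the reverse. Livers were taken at postnatal day 21 or day 150, which gave 6 groups of 3 Affymetrix mouse genome arrays. Each array was hybridised with RNA pooled from several livers. The labels differ on whether a pool held 3, 4 or 5 animals, and they do not say whether pools share animals or dams. The p-values below therefore measure the spread between pools. Sex was not given.

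Proteins that a hepatocyte secretes are threaded into the ER, folded, given disulfide bonds and checked before export. HSPA5 (BiP) is the Hsp70 of this compartment, and it holds unfolded chains in a cycle that J-domain proteins start and nucleotide exchange factors reset. When unfolded chains build up, the sensors ATF6, IRE1 and PERK start the unfolded protein response, and ATF6 and XBP1 then raise the transcription of chaperone genes. The liver is known for a heavy secretory load of albumin, clotting factors and lipoproteins.

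ATF6 and XBP1 act with the CCAAT-binding factor NF-Y at the ER stress response element (ERSE), which has a CCAAT box and a CCACG box. Promoter sequences, from 250 bases before to 50 bases after the annotated start, were matched by symbol in RefSeq for GRCm38.p6 for 9 of the 10 genes, all but Hyou1. Both strands were searched for CCAAT and CCACG with 9 bases between them. This motif was found in 5 of the 9, and in 39 of all 32851 promoters (0.119%). The sequences below show these sites with up to 20 bases on each side, written 5′ to 3′ along the gene, with both boxes in capitals. A site that runs against the gene reads CGTGG and then ATTGG. Pdia3 and Pdia4 hold the motif without its last base, which 120 promoters (0.365%) hold. Sdf2l1 and Dnajb9 carry the boxes at other spacings, and the stretch before their start is shown for comparison.
Hspa5: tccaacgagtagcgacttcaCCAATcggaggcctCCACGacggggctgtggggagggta
Hsp90b1 distal site: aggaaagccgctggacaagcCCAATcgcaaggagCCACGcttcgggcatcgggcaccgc
Hsp90b1 proximal site: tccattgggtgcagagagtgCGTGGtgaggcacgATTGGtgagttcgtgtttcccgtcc
Calr: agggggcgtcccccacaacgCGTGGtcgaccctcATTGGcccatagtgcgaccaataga
Canx: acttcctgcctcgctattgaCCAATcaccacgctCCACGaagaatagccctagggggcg
Pdia3: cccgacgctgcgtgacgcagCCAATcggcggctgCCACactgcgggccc
Pdia4: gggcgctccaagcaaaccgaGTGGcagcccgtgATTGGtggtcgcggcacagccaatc
Pdia6: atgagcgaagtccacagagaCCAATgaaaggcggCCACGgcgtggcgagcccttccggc
Sdf2l1: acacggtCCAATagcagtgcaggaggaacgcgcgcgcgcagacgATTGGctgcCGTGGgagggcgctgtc
Dnajb9: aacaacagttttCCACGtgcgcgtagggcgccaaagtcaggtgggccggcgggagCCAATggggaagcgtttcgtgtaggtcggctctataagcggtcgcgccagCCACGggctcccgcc
The Hspa5 site lies on the plus strand of chromosome 2 (chr2:34772005-34772063), 46 bases before the start. Hsp90b1 has its sites 193 and 88 bases before the start on the minus strand of chromosome 10 (chr10:86705618-86705676 and chr10:86705513-86705571), one in each orientation. The sites of Calr (chr8:84847055-84847113, minus strand), Canx (chr11:50325780-50325838, minus strand) and Pdia6 (chr12:17266471-17266529, plus strand) lie 143, 126 and 79 bases before the start. Those of Pdia3 (chr2:121413853-121413901, plus strand) and Pdia4 (chr6:47813582-47813639, minus strand) lie 11 and 89 bases before it. The last stretches are the 70 bases before the start of Sdf2l1 (chr16:17132384-17132453, minus strand) and the 120 bases before that of Dnajb9 (chr12:44210069-44210188, minus strand). The related motifs ERSE-II, ATTGG and CCACG with 1 base between them (0.0365% of promoters), and TGACGTGG (0.676%) were in none of the 9 windows. CCAAT alone was in 9 of 9 and in 37.4% of all promoters. A match describes letters and not binding, and these motifs overlap one another.

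The values are MAS5 signals in arbitrary units, scaled so that the trimmed mean of each array is 500.0. All 10 genes gave strong signal. Their mean log2 signals lay between the 76.6th percentile of the genes tested (Hyou1) and the 99.1st (Hspa5). The 3′ to 5′ signal ratio of the Gapdh control probe sets, a measure of RNA integrity and labelling, was 0.821 to 0.993 on the 9 arrays of day 21 and 1.30 to 1.80 on the 9 of day 150. The actin ratio was 1.96 to 3.15 and 4.06 to 6.50. Neither overlapped between days, so age and this measure cannot be told apart. Hepatocyte markers were high on every array, with a summed signal of 204795 to 404923 over 9 genes. Xist, expressed from the inactive X chromosome of females, read 7343 in control day 21 replicate 2 and 11644 in HPlact day 150 replicate 4, and at most 93.0 elsewhere.

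**Figure D1:**
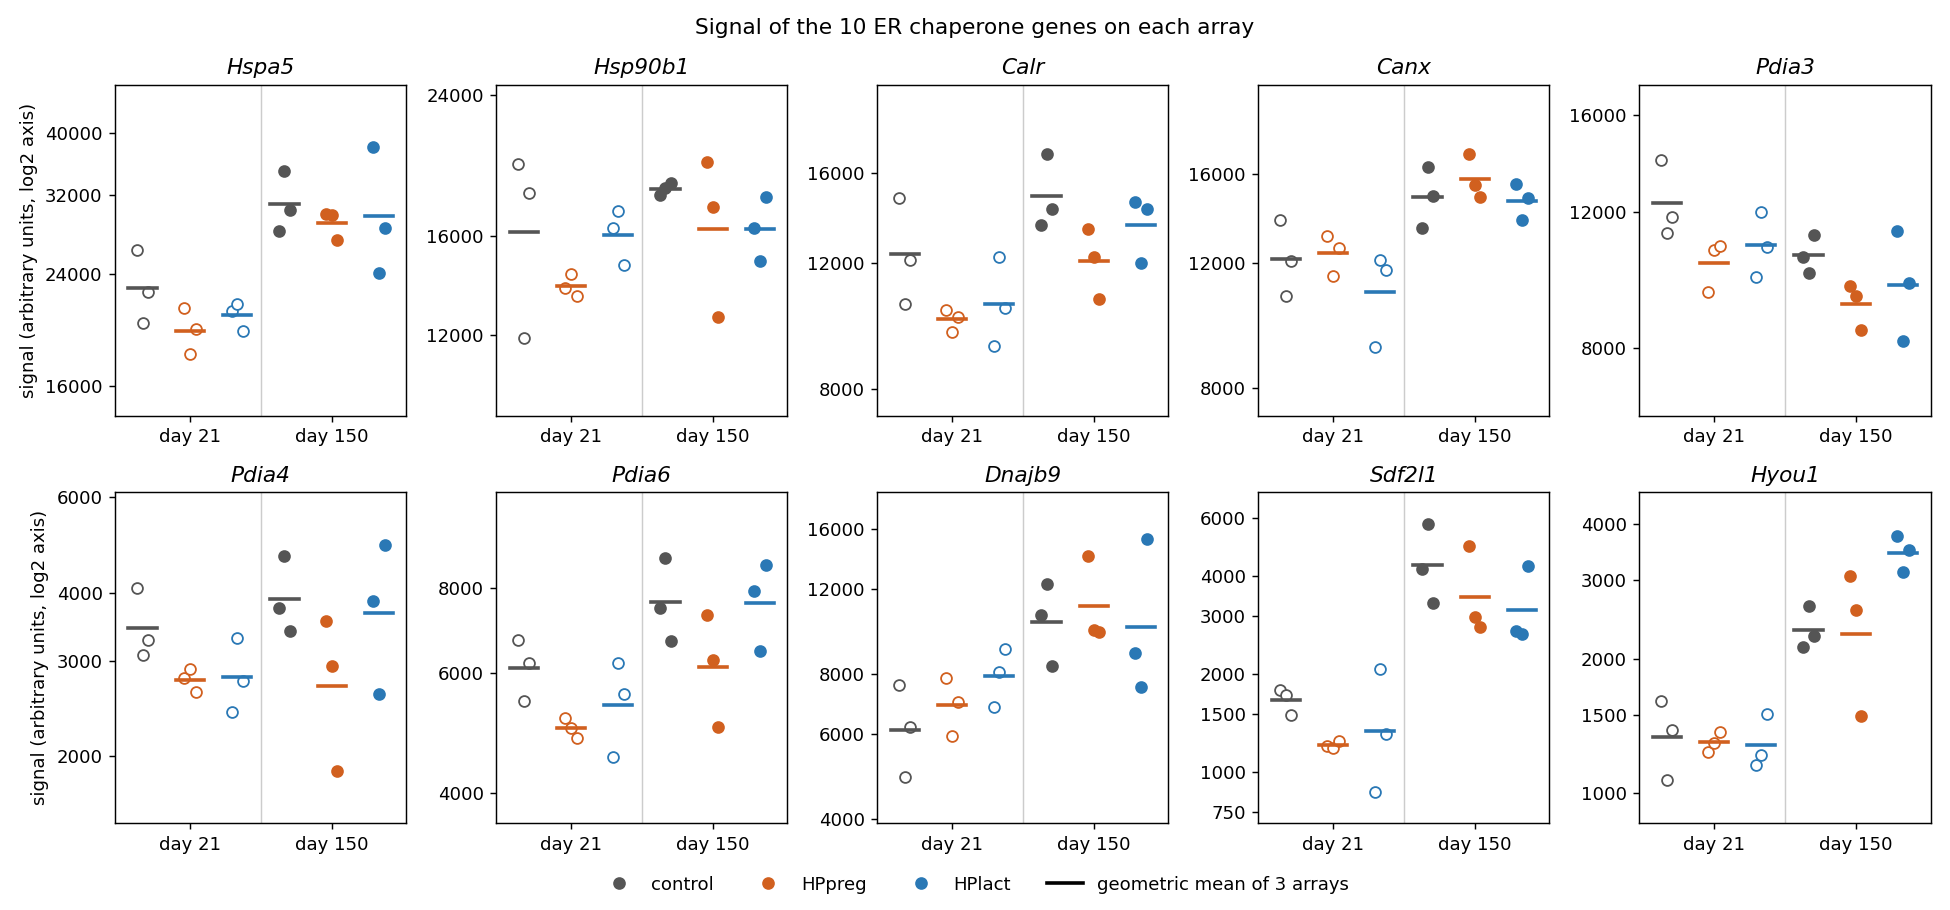
Signal (arbitrary units, log2 axis) of each of the 10 genes on the 18 arrays, at the brightest probe set. Open points are day 21, filled points day 150, colours the maternal diets and lines the geometric means of 3 arrays. For Sdf2l1 all 9 arrays of day 150 lie above all 9 of day 21.

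The age comparison asks how the chaperone transcripts differed between day 21 and day 150 within each maternal diet. Part of the list rose: 4 of 10 in control, 5 of 10 in HPpreg and 5 of 10 in HPlact, and 0 fell, at a limma adjusted p under 0.05. Over all genes tested 17.8%, 23.6% and 25.7% were called in either direction, and 9.70%, 12.1% and 14.1% rose. Hspa5, Sdf2l1 and Hyou1 rose in all 3 diets, as did 5.98% of all genes. The members' median difference was 0.31, 0.32 and 0.41 on the log2 scale, beside 0.02, 0.02 and 0.03 over all genes. All 3 day 150 arrays lay above all 3 of day 21 for 4, 6 and 5 members, beside 18.6%, 23.2% and 20.0% of all genes. The test over all 6 groups called 7 of 10 members, beside 41.5% of all genes. In bulk liver, fewer cells of a type and less RNA per cell cannot be told apart.

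Hspa5 signal in control livers was 26244, 20139.7 and 22483 at day 21 and 28079, 34846 and 30258 at day 150. In HPpreg it was 21221, 17962 and 19647 and then 29812, 29765 and 27127. In HPlact it was 20996, 21560.3 and 19535 and then 38119.5, 24083 and 28361. Every day 150 array lay above every day 21 array of its own diet, and the highest of all was HPlact day 150 replicate 4. The rise was 1.36-fold in control (log2 difference 0.44, SE 0.14, limma adjusted p = 0.0382), 1.48-fold in HPpreg (adjusted p = 0.00767) and 1.43-fold in HPlact (adjusted p = 0.0116).

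Sdf2l1, which works beside the J-domain proteins of the BiP cycle, had the largest age difference among the members in control and HPpreg. Its signal in control rose from 1779.9, 1717 and 1493 to 4207, 5770.1 and 3290.2. In HPpreg it rose from 1201, 1181 and 1239 to 4955, 2978 and 2784. In HPlact it rose from 868, 2073 and 1307 to 2705, 2649.6 and 4302. The lowest day 150 value of any diet, 2649.6, was above the highest day 21 value, 2073. The factors were 2.60, 2.86 and 2.36, with log2 differences of 1.38, 1.52 and 1.24 (SE 0.27) and limma adjusted p-values of 0.0022, 0.000705 and 0.00295.

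Hyou1, the large Hsp70 relative that acts as a nucleotide exchange factor for BiP, gave 1606, 1073 and 1384 at day 21 and 2124, 2622 and 2246 at day 150 in control. The HPpreg values were 1237, 1298 and 1368 and then 3053, 2560.2 and 1489, with replicate 3 of day 150 far below the other two. The HPlact values were 1157, 1216 and 1506 and then 3755, 3112 and 3500.4. The groups of each diet did not overlap, and the rise was 1.74-fold, 1.74-fold and 2.68-fold (log2 0.80, 0.80 and 1.42, SE 0.20, limma adjusted p = 0.0114, 0.00799 and 6.21e-05). The larger value in HPlact was tested as a change of the response with age: the difference between the 2 age responses was 0.63 (SE 0.29, limma adjusted p = 0.929), which does not pass over all genes.

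Dnajb9 (ERdj4) is a J-domain partner of BiP. Its signal was 7571, 4896 and 6210.3 in control at day 21 and 10618, 12283 and 8300.4 at day 150. In HPpreg it was 7850.0, 5951 and 6992 and then 14060.2, 9857 and 9771. These groups did not overlap and the rises passed, with log2 differences of 0.74 (SE 0.23, limma adjusted p = 0.0301) and 0.68 (adjusted p = 0.0364). In HPlact, 6821, 8067 and 8998 at day 21 met 8837, 7501 and 15236 at day 150. Here the groups overlapped and a single day 150 array was high, with a log2 difference of 0.34 (limma adjusted p = 0.286).

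Hsp90b1 (GRP94), the ER member of the Hsp90 family, showed no called difference. Its control values of day 21, 19691, 11899 and 18108, spread around the narrow day 150 values of 17980.3, 18359.5 and 18625. Across diets the log2 differences with age were 0.18, 0.24 and 0.02 (SE 0.16), with limma adjusted p-values of 0.499, 0.32 and 0.929. The 95% interval in HPlact, -0.32 to 0.37, leaves room for a change of either sign. The control difference turned to -0.04 without day 21 replicate 2, the lowest array.

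Calnexin (Canx) and calreticulin (Calr) are the lectin chaperones that hold glycoproteins through their trimmed sugars, and Pdia3 (ERp57) is the disulfide isomerase that binds both. Canx was 9132, 12108 and 11729 at day 21 and 15497, 13763 and 14769 at day 150 in HPlact, and 13081, 11472 and 12586 and then 17066, 15436 and 14839.6 in HPpreg. Neither pair of groups overlapped, and both rises passed, at log2 0.43 (SE 0.12, limma adjusted p = 0.0161) and 0.35 (adjusted p = 0.0464). The control difference of 0.29 did not pass (limma adjusted p = 0.112). Calr differed by 0.27, 0.27 and 0.37 (limma adjusted p = 0.201, 0.175 and 0.0602), and none of the 3 passed. Pdia3 went the other way. Its control values were 14011, 11279 and 11817 at day 21 and 10505, 9994 and 11213 at day 150, without overlap, and its differences of -0.22, -0.18 and -0.17 were negative in each diet. None passed (limma adjusted p = 0.236, 0.324 and 0.337), and Pdia3 was the only member below 0 in all 3 diets.

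Pdia4 (ERp72) and Pdia6 (P5) form and rearrange disulfide bonds. Pdia6 in HPlact was 4508, 6210.1 and 5581 at day 21 and 7912, 6456 and 8640.4 at day 150. The groups did not overlap, and the rise was 1.41-fold (log2 0.50, SE 0.15, limma adjusted p = 0.0233). In control and HPpreg the Pdia6 differences of 0.32 and 0.29 did not pass (limma adjusted p = 0.164 and 0.18). Pdia4 differed by 0.18, -0.04 and 0.39 with a larger error (SE 0.22) and passed in none of the 3 (limma adjusted p = 0.636, 0.924 and 0.212). Its HPpreg day 150 arrays, at 3549, 2935 and 1883, held both a value above and a value below all 3 of day 21.

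**Figure D2:**
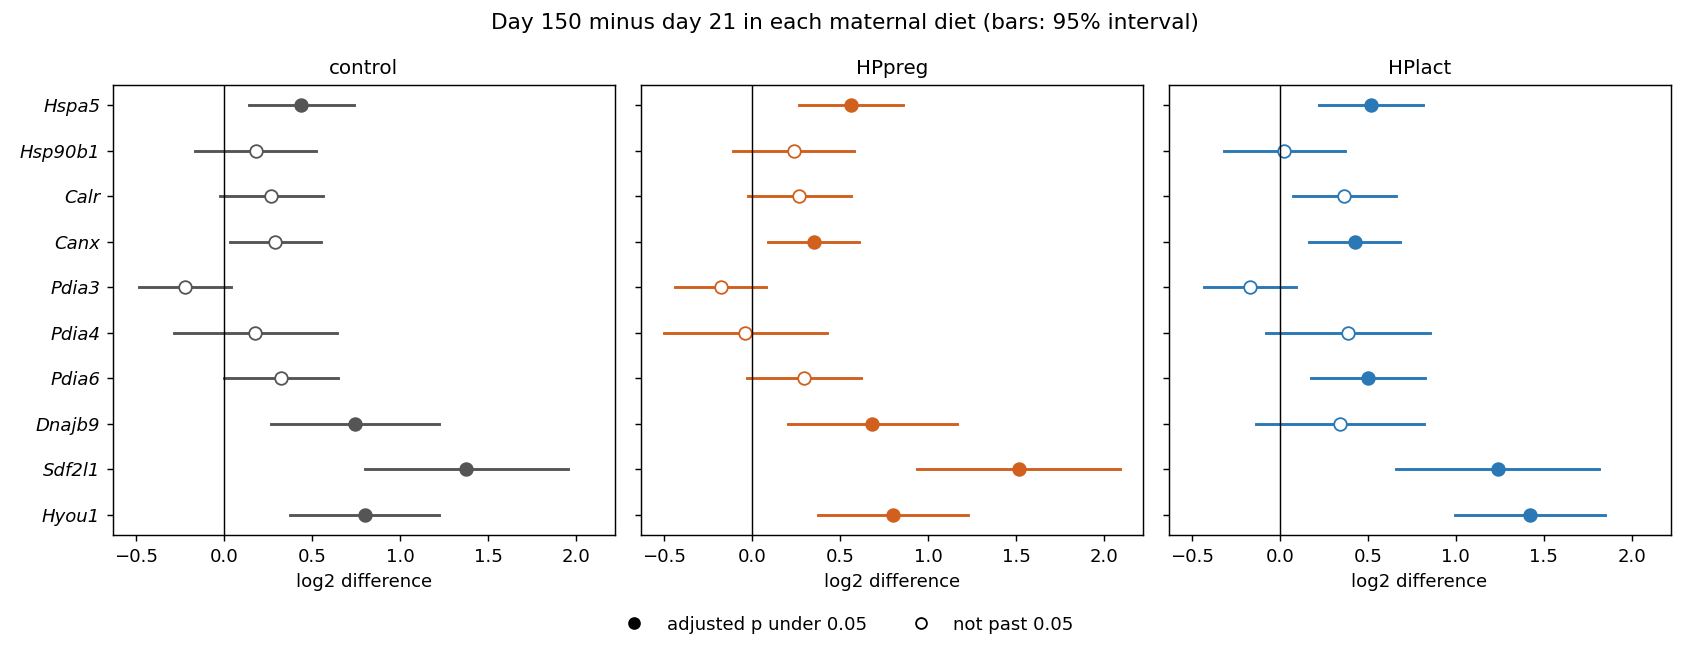
Log2 difference between day 150 and day 21 for each gene, one panel per maternal diet, with 95% intervals (x axis: log2 difference, y axis: gene). Filled points passed a limma adjusted p under 0.05. Sdf2l1 lies at 1.38, 1.52 and 1.24, and Pdia3 lies below 0 in each panel.

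The age counts moved with single pools. A fit with an array left out has fewer arrays for every gene, so these counts do not show whether the members moved more than other genes. In control, 1 of 10 members (Sdf2l1) passed without day 21 replicate 2 or without day 150 replicate 2, 2 without day 21 replicate 3, and 3 or 4 without another array. In HPpreg, 2 passed without day 150 replicate 1, 3 without day 21 replicate 2, day 21 replicate 3 or day 150 replicate 2, and 4 otherwise. In HPlact, 2 passed without day 150 replicate 4, 3 without day 21 replicate 1, 7 without day 150 replicate 5, and 4 to 6 otherwise. Sdf2l1 passed in each of these 18 fits. With the Gapdh ratio as a covariate 0 members passed in any diet. The Sdf2l1 differences were then 0.91, 0.82 and 0.52, with SEs of 0.54, 0.74 and 0.77, and over all genes 52, 2 and 17 passed.

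Some markers of other cells also moved with age. The summed signal of 9 pancreatic acinar markers was 1661 to 3079 at day 21 and 5694 to 8219 at day 150, nearly all of it from Cela1, whose group means were 1782 to 2504 and 5787 to 7602. Cela2a, the other acinar marker that passed the filter, was lower at day 150 by log2 differences of -0.63, -1.40 and -0.40, and its fall was called in HPpreg. Cpa1, a defining acinar enzyme, read at most 14.4 anywhere, and the rest of the 9 at most 151. The sum of 9 plasma and B cell markers was 332 to 841 and then 969 to 2033, with Jchain at 46.7 to 88.9 and then 332 to 629 as group means. Kupffer cell markers summed to 12629 to 21651 and then 19145 to 28293. Marco went the other way in each diet. Its group means in control, HPpreg and HPlact were 535, 637 and 831 at day 21 and 351, 327 and 341 at day 150. Vsig4 and C1qa were lower at day 150 in HPpreg only. Stellate cell markers summed to 18706 to 28234 and then 11871 to 18836, though Des in control had group means of 111 and then 133. Hepatocyte markers summed to 270135 to 287121 at day 21 and 254958 to 322721 at day 150 in control. In HPpreg the sums were 205168 to 252980 and then 237853 to 293278, and in HPlact 204795 to 262988 and then 249407 to 404923. Tat was lower at day 150 in control and HPlact and Apoa1 in control, and the other hepatocyte group means were higher. Those of Hnf4a were 9133, 8424 and 9224 and then 12303, 12091 and 12950. The part of these marker changes in the chaperone differences was not tested.

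Most members are read by more than 1 probe set, and these did not always move together. Of the 21 kept probe sets, 5, 7 and 6 rose with age in control, HPpreg and HPlact and 0 fell, beside 14.9%, 21.6% and 23.2% of all 19349 kept probe sets called in either direction. Canx split: the third-brightest set, 1428935_at, rose by 0.59, 0.80 and 0.82 and was called in each diet, while 1422845_at gave -0.14, -0.33 and -0.24 and was called in none. The Hyou1 rise was called at 1423291_s_at alone. Its second set, 1423290_at, gave 0.72, 0.18 and 0.39 with SEs of 0.32, and its dimmest set, 1451913_a_at, gave -0.70, 0.47 and 0.47 with SEs of 0.50. For Hspa5 the brightest set was called in each diet and the other two in none. All 6 of these other Hspa5 differences were positive, from 0.07 to 0.74. The dim second set of Pdia3 was positive in each diet (0.43, 0.31 and 0.63), opposite to the bright one, and passed in none. The mean of the pair of sets was then positive, at 0.11, 0.06 and 0.23. The second set of Pdia6, 1430983_at, gave 0.92, 0.98 and 0.68 and was called in HPpreg, where the bright set was not. Of the 3 Calr sets, 2, 1 and 3 were positive with age in control, HPpreg and HPlact, and of the 2 Hsp90b1 sets 1, 1 and 2. The brightest set of each gene was positive in each diet, and none of these sets was called. Sdf2l1 and Dnajb9 have 1 probe set each and no such check.

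**Figure D3:**
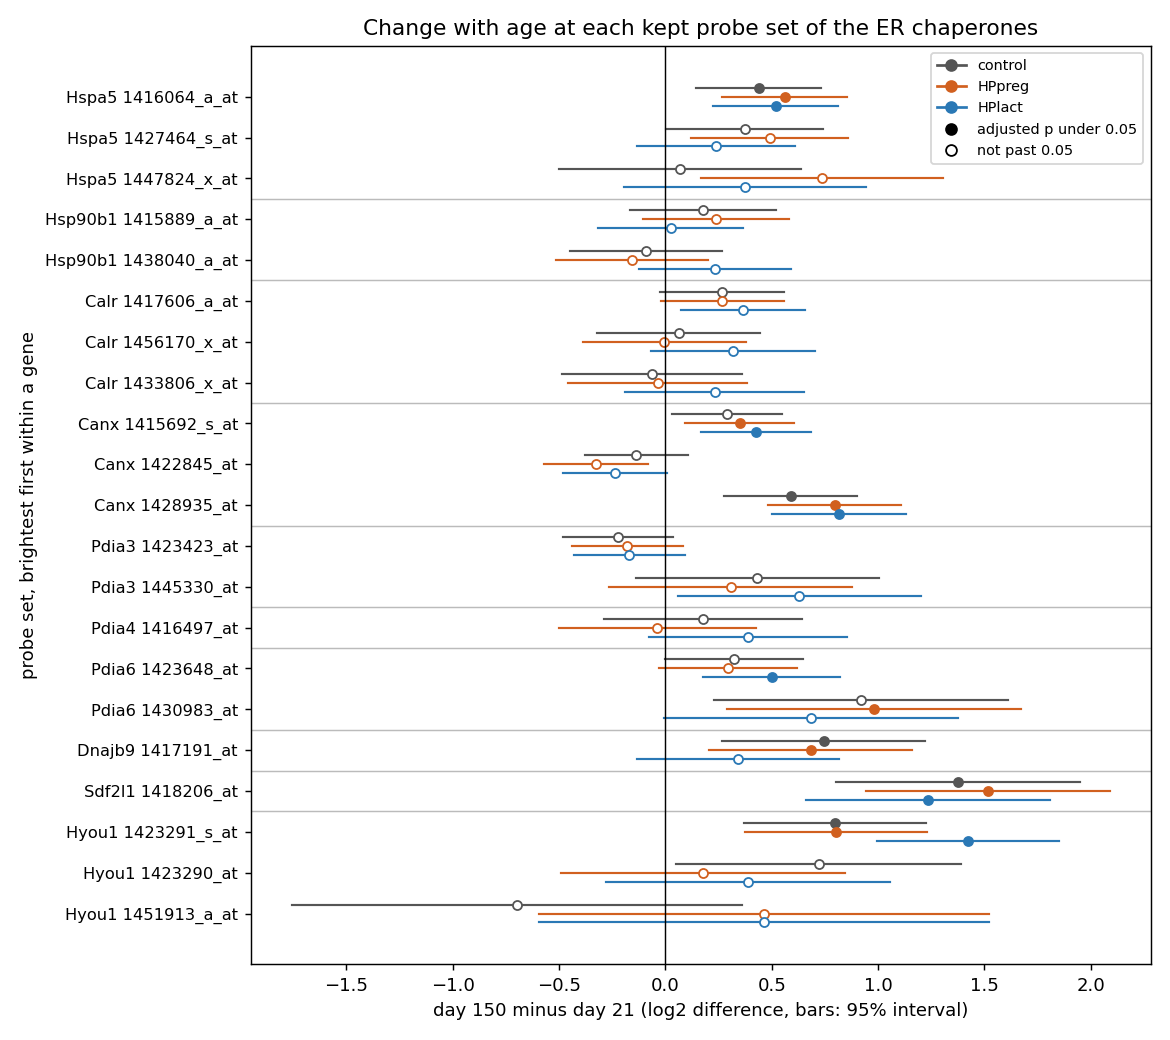
Log2 difference between day 150 and day 21 at each of the 21 kept probe sets, with 95% intervals (x axis: log2 difference, y axis: probe set grouped by gene). Filled points passed an adjusted p under 0.05 in limma over all 19349 kept probe sets. The Canx sets lie on both sides of 0.

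The diet comparisons ask whether a high protein diet in the dam shifted these transcripts in the offspring. No member was called in any of the 4 comparisons with control, with a limma adjusted p of 0.18 or more, beside 0%, 0.172%, 2.63% and 0.00908% of all genes (HPpreg and HPlact at day 21, then at day 150). Unadjusted, p was under 0.05 for 1, 0, 2 and 1 members. Such p-values also arise where nothing differs, so these counts are not calls. The differences were negative for 8, 9, 8 and 9 of the 10. The members' medians were -0.24, -0.17, -0.19 and -0.08, beside 0.01, 0.00, 0.00 and 0.00 over all genes. Quantile normalization brought them to -0.11, -0.04, -0.11 and -0.02, beside -0.02, -0.05, 0.00 and -0.02, so that the HPpreg medians alone stayed below those of all genes. With equal 75th percentiles they were -0.31, -0.29, -0.19 and -0.13, beside -0.07, -0.12, 0.01 and -0.05. The comparisons of a day share their 3 control arrays.

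These medians moved with single pools. The HPpreg median at day 21 was -0.14 without control replicate 1 and -0.34 without control replicate 2. That at day 150 was -0.11 without HPpreg replicate 3 and -0.28 without HPpreg replicate 1. In HPlact at day 21 it was -0.04 without HPlact replicate 1 and -0.07 without control replicate 1. It was -0.24 there without control replicate 2 or HPlact replicate 2. In HPlact at day 150 it turned positive without control replicate 2 (0.03, 6 of 10 members positive) or HPlact replicate 5 (0.06, 6 of 10), and was -0.13 without control replicate 1, -0.12 without control replicate 3 and -0.15 without HPlact replicate 4 or replicate 6. Hepatocyte markers were negative for 9, 7, 9 and 5 of the 9 tested in the same 4 comparisons, with medians of -0.28, -0.33, -0.11 and -0.02. Kupffer cell markers were positive for 9, 3, 7 and 5 of 9, with medians of 0.35, -0.06, 0.07 and 0.05. Plasma and B cell markers were positive for 6, 1, 5 and 6 of 6, with medians of 0.35, -0.26, 0.55 and 0.53. None of these marker genes passed, and their part in the members' differences was not tested.

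In HPpreg at day 21 the 3 arrays of 5 members (Calr, Pdia3, Pdia4, Pdia6 and Sdf2l1) all lay below the 3 of control, as did those of 7.74% of all genes. The 99th percentile of signal was also wholly lower, at 15701 to 17018 on the HPpreg arrays and 17713 to 19913 on the control arrays. The members are bright genes, and the part of this shift in the count was not tested. Sdf2l1 was 1201, 1181 and 1239, against 1779.9, 1717 and 1493 in control, a log2 difference of -0.46 (SE 0.27, limma adjusted p = 0.593). Calr was 10326, 9624 and 10098, against 14804, 10506 and 12119, a difference of -0.30 (SE 0.14, limma adjusted p = 0.487). For Pdia3 the difference was -0.26 (SE 0.12). The 3 control pools were more spread than the 3 HPpreg pools for each of these. The log2 SDs in control and HPpreg were 0.134 and 0.035 for Sdf2l1, 0.248 and 0.052 for Calr, and 0.165 and 0.110 for Pdia3. In HPlact at day 21 the arrays of 0 members lay wholly above or wholly below control, beside 7.43% and 8.71% of all genes. Dnajb9 alone was higher in mean, by 0.37 (SE 0.23, limma adjusted p = 0.477), and Calr stood at -0.23.

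In HPpreg at day 150 the largest difference was that of Pdia4, at 3549, 2935 and 1883 against 3746, 4664 and 3399 in control. It amounted to -0.53 on the log2 scale (SE 0.22, limma adjusted p = 0.183), and the groups overlapped. Calr was again lower by the same amount, at 13401, 12221 and 10700.2 against 13574, 16997 and 14260.0 (log2 -0.30, SE 0.14, limma adjusted p = 0.233). Its groups did not overlap, and the same held for Pdia3, so that 2 of 10 members lay wholly below control, beside 12.9% of all genes. Pdia6 differed by -0.32 (limma adjusted p = 0.26).

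In HPlact at day 150 Hyou1 was the 1 member with a positive difference, and it did not pass. All 3 HPlact arrays, 3755, 3112 and 3500.4, lay above the control arrays at 2124, 2622 and 2246. The difference was 0.57 (SE 0.20), with a limma adjusted p of 0.517 over all genes. Sdf2l1 went the other way there, at 2705, 2649.6 and 4302 against 4207, 5770.1 and 3290.2 (log2 -0.46, SE 0.27, limma adjusted p = 0.728), with overlap. Hyou1 was the 1 member of 10 wholly above control (7.42% of all genes), and Hsp90b1 the 1 wholly below (6.28%). Their other probe sets differed: for Hyou1, 1423290_at gave -0.10 (SE 0.32) and the dim 1451913_a_at 1.24 (SE 0.50), and for Hsp90b1, 1438040_a_at gave 0.18 against -0.17 at the bright set.

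**Figure D4:**
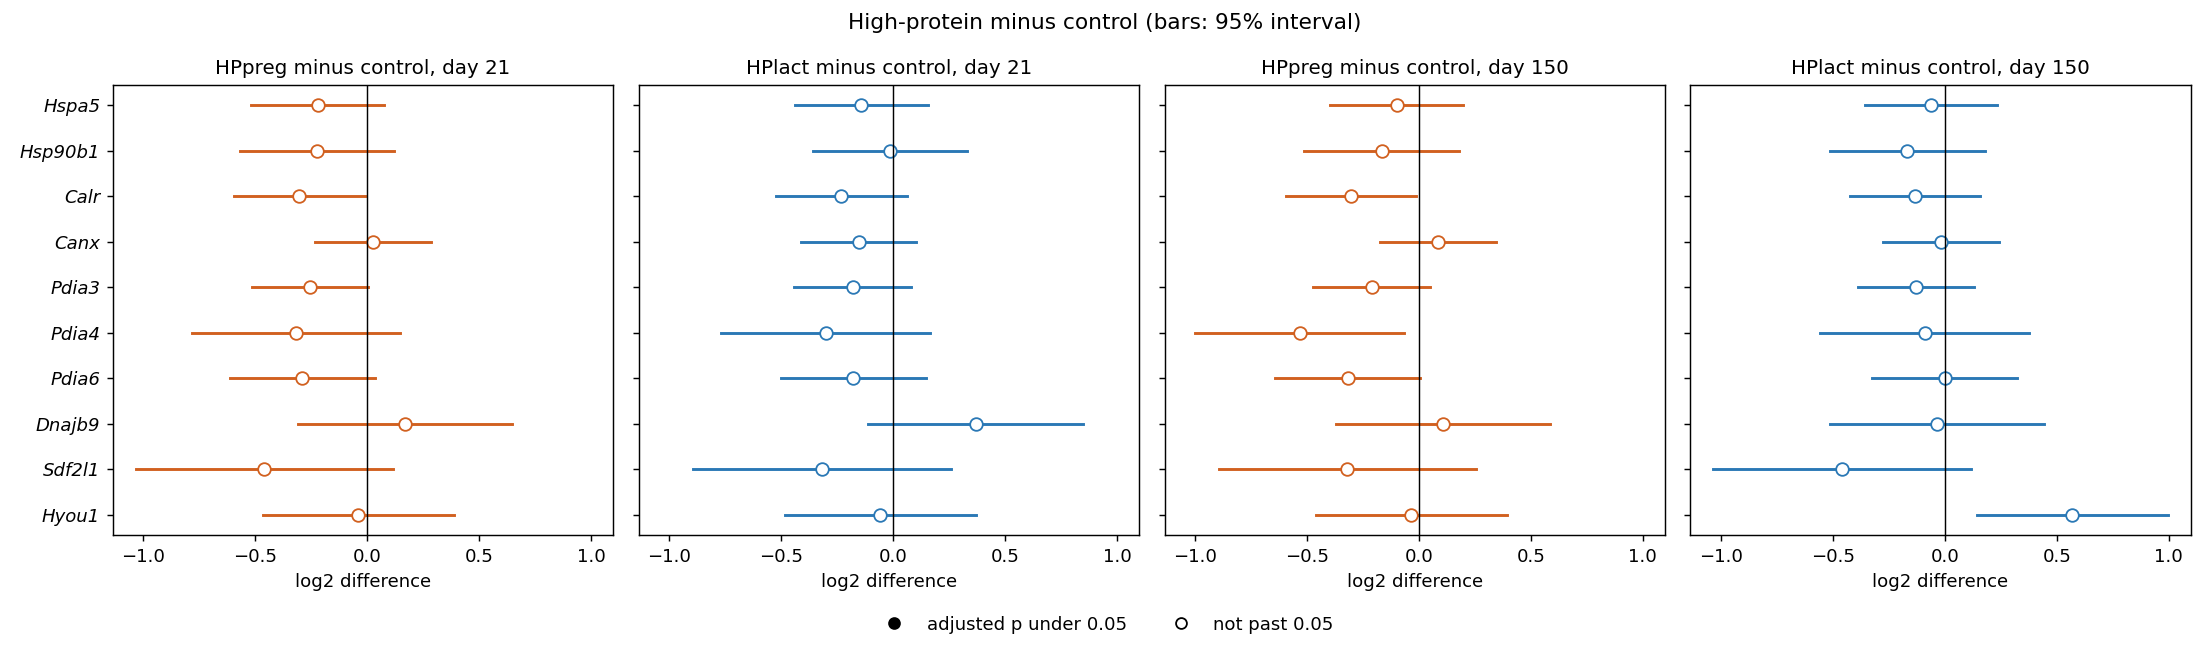
Log2 difference between a high protein group and control of the same day for each gene, with 95% intervals (x axis: log2 difference, y axis: gene). All points are open because none passed a limma adjusted p under 0.05. Hyou1 lies at 0.57 in HPlact at day 150.

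Set against each other, HPpreg and HPlact also gave 0 called members at either day, beside 1.28% and 0.717% of all genes. At day 150 Hyou1 was lower in HPpreg than in HPlact, by a log2 difference of -0.60, and was the 1 member without overlap, beside 10.8% of all genes (SE 0.20, limma adjusted p = 0.132). Pdia4 and Pdia6 differed by -0.44 and -0.32 (limma adjusted p = 0.314 and 0.297). At day 21 the members' differences between these diets ran from -0.21 to 0.18, and Hsp90b1 alone lay wholly lower in HPpreg (8.70% of all genes). The change of the diet response from day 21 to day 150 was called for 0 members in either diet, beside 0.0182% of all genes each. The tests of any diet difference within day 21 and within day 150 called 0 members, beside 0.663% and 1.22%. Unadjusted, p was under 0.05 for 0 and 1 members between HPpreg and HPlact at day 21 and day 150. It was so for 0 and 1 in the changes of the HPpreg and HPlact responses, and for 0 and 1 in the tests within a day. As above, these counts are not calls.

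From pool to pool within a group, the members varied together. After each group's mean was removed, the log2 signals of all 45 pairs of members correlated positively over the 18 arrays, with a median Pearson r of 0.62. An r over 0.5 was reached by 36 of the 45, or 80.0%, against 5.86% of all pairs of genes tested, whose median was 0.00. After quantile normalization the members' median was 0.69. The closest pairs were Pdia4 with Pdia6 (0.94) and Calr with Canx (0.91), and the loosest was Hspa5 with Sdf2l1 (0.17). The genes read on an array share its pool and scaling, and arrays share a group, so these values are descriptions.

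Single pools show this. In HPpreg at day 150 all 10 members were above their group mean on replicate 1 and all 10 below it on replicate 3, by 0.26 and -0.27 on average in log2. HPlact day 150 replicate 5 had all 10 below (-0.25), and control day 21 replicate 1 had all 10 above (0.22). Sdf2l1 had the widest range, from -0.62 in HPlact day 21 replicate 1 to 0.64 in replicate 2 of that group. Pdia3, whose bright set gave negative age differences that did not pass, followed the other members within groups. Its median r to the other members was -0.11 over the 18 arrays as they stood and 0.54 with group means removed. Within groups the members' r with the Gapdh ratio ran from -0.25 to 0.41.

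**Figure D5:**
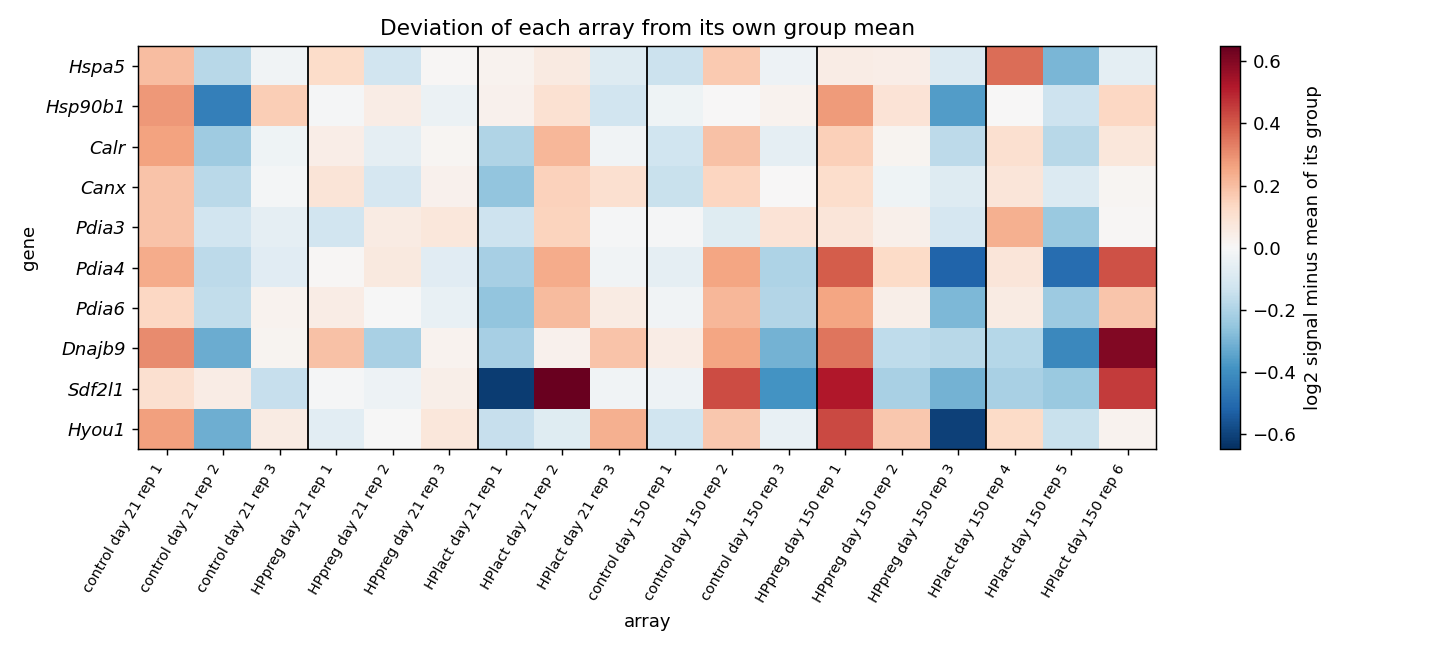
Log2 signal minus the mean of its own group for each gene (rows) on each of the 18 arrays (columns), with red above and blue below the mean. Control day 21 replicate 1, HPpreg day 150 replicates 1 and 3 and HPlact day 150 replicate 5 have all 10 genes on one side.

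The 10 genes whose profile over the 18 arrays was most like the members' mean, by Pearson r, were Creld2 (0.94), Dnajb11 (0.91), Cyb5b (0.91), Prm1 (0.90), Rpn1 (0.90), Sar1a (0.90), Tmx1 (0.90), Manf (0.89), Camk1d (0.89) and Sec63 (0.88). With group means removed their r was 0.71 to 0.86. They were picked on these same arrays for likeness to a mean that was higher at day 150. A rise with age and a high r therefore follow in part from the choice. Creld2, an ER disulfide isomerase, was 2929, 2237 and 1920.0 at day 21 and 6655, 8743 and 3706 at day 150 in control, without overlap. Its rises of 1.37, 1.57 and 1.71 were about as large as those of Sdf2l1 (limma adjusted p = 0.00664, 0.00181 and 0.00076).

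Relatives outside the list were read in the same way. Sdf2, the close relative of Sdf2l1 that ER stress does not induce, differed with age by 0.23, 0.13 and 0.19 and passed in no diet (limma adjusted p = 0.146, 0.39 and 0.203). P4hb, the founding disulfide isomerase, differed by 0.22, 0.32 and 0.34 and passed in HPlact (limma adjusted p = 0.0401). Dnajb11 (ERdj3), another BiP partner, differed by 0.47, 0.48 and 0.63 and also passed in HPlact alone (limma adjusted p = 0.0793, 0.0584 and 0.016). Sil1, the other nucleotide exchange factor for BiP, fell with age where Hyou1 rose, with log2 differences of -0.61, -0.85 and -0.48 (limma adjusted p = 0.0132, 0.000991 and 0.0331).

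Other gene groups of the ER were read with age in the order control, HPpreg and HPlact. Of 27 other ER folding factors tested, 2, 2 and 6 rose and 3, 3 and 2 fell, with medians of 0.04, 0.03 and 0.19. Fkbp14, a collagen-folding isomerase, rose in each diet (0.85, 0.93 and 0.95), and Txndc12, a thioredoxin-like oxidoreductase, fell in each (-0.53, -0.87 and -0.84). Of 16 sensors and factors of the unfolded protein response, 2, 2 and 1 rose and 1, 2 and 3 fell. Xbp1, the factor that IRE1 splices, rose in each diet by 0.40, 0.53 and 0.61 (limma adjusted p = 0.0119, 0.00118 and 0.000295), while Trib3, a target of the PERK branch, fell in each (-0.58, -0.96 and -0.71, limma adjusted p = 0.0333, 0.000959 and 0.0075). The array reads total Xbp1 and not its splicing.

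Of 22 genes of ER-associated degradation, 2, 5 and 5 rose and 0, 0 and 1 fell. Derl1, a channel component for proteins leaving the ER, rose by 0.78, 0.86 and 0.97 (limma adjusted p = 0.00608, 0.00231 and 0.000743). Of 29 genes of ER entry and N-glycosylation, 5, 8 and 9 rose and 2, 4 and 1 fell. The signal peptidase subunit Sec11c rose by 1.05, 1.32 and 1.52, whereas the oligosaccharyltransferase subunit Ddost differed by -0.56, -0.96 and -0.50 (limma adjusted p = 0.00994, 0.000103 and 0.0129). These lists were made with earlier results known, and their shares of calls may be read beside the 17.8%, 23.6% and 25.7% of all genes.

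The chaperones of the cytosol and mitochondria moved in both directions. Of 18 tested, 6, 7 and 6 rose and 5, 2 and 5 fell. Hspb1, a small heat shock protein, rose by 3.29, 3.73 and 3.92 in log2, more than any ER member. The constitutive Hsp70 Hspa8 rose by 0.70, 0.67 and 0.69, and Hsp90aa1 by 0.42, 0.50 and 0.44, while the chaperonin subunit Cct8 fell in each diet (-0.85, -0.92 and -0.83, limma adjusted p = 0.000165, 6.13e-05 and 0.000121).

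In the diet comparisons, single genes of these lists passed, out of 27, 16, 22, 29 and 18 tested in the order above. Over all genes 2.63% passed in HPpreg against control at day 150. Between HPpreg and HPlact, 1.28% passed at day 21 and 0.717% at day 150. In HPpreg against control at day 150, Sil1 (-0.62) and Ddost (-0.56) were lower, and Edem3, which trims mannose from misfolded glycoproteins, was higher (0.83), with limma adjusted p-values of 0.0449, 0.0421 and 0.0139. In HPpreg against HPlact, Ufd1 was lower (-0.65) and Hspa1b higher (1.14) at day 21, and Pdia5 (-0.80) and Ddost (-0.67) lower at day 150 (limma adjusted p = 0.0186, 0.016, 0.0385 and 0.0385). No gene of these 5 lists passed in HPpreg against control at day 21 or in HPlact against control at either day. Of all genes, 0% passed in the first, and 0.172% and 0.00908% in HPlact at day 21 and day 150. Hspa1b is nearly identical to Hspa1a, and the array may read both.

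Read beside the promoter sites shown above, the member with the largest rises in control and HPpreg, Sdf2l1, held no full ERSE in this window. Of the 5 with the site, 1, 2 and 3 rose with age in control, HPpreg and HPlact, beside 9.70%, 12.1% and 14.1% of all genes. Of the 4 in the table without it, 2, 2 and 1 rose, Sdf2l1 each time. Of 11 other tested genes with the motif, 2, 2 and 3 rose, Creld2 among them each time, and 0, 1 and 1 fell.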

How the data were processed

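Liver RNA pools were hybridised to 18 arrays, 3 in each of 6 groups. The deposited intensity values are MAS5 signals on a linear scale, made by the authors with MAS5 and GCOS 1.4 per the submitters' processing notes; the scaling was read from the values. Detection calls and scan dates were not used here. The number of arrays limits the precision.

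Of the 45101 probe sets, 34958 had 1 gene symbol, 932 several and 9211 none. Dim probe sets, averaging under 57.5 in signal (the midpoint over all sets that are no controls), were left out, and a gene was read by its brightest kept set. A single model of 6 group means was fitted to log2 signals of all 18 arrays with limma 3.58.1 in R 4.3.3 (eBayes with trend, two-sided), with Benjamini-Hochberg adjustment over 11018 genes and a threshold of 0.05. The median SE of a difference was 0.19. The fit was tested on simulated data. Figures were drawn with matplotlib 3.10.9.

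The members and gene lists were chosen with earlier results of these data known. Named genes are the members with all their probe sets, up to 4 genes of each other list with the smallest p in a comparison and any past the threshold, the 10 most alike genes, 6 relatives, and Xist and Gapdh. Alternatives changed the normalization, scaling, filter, amount added, probe set rule, prior, threshold, arrays in the fit, replicate block, RNA ratio covariate and each array left out. Same-numbered arrays did not deviate together (30 correlations from -0.11 to 0.10), so numbers were not taken as pairs.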

Additional observations from a re-analysis of the deposited data

How the results depend on the processing

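Of 286 counts of called members, 268 stayed within 1.5 times the count reported. Most of the 286 were diet, interaction and within-day counts, which were 0 under every setting run. The 18 that moved were all age counts or counts over the 6 groups. The age counts moved. In control, 4 became 2 with eBayes without trend, 1 without the arrays with Xist signal, 0 with the Gapdh ratio as covariate, and 1 to 4 with one array left out. In HPpreg, 5 became 3 with no filter, 3 without trend, 0 with the Gapdh ratio, and 2 to 4 with one array left out. In HPlact, 5 became 2 from the compared arrays alone, 0 with the Gapdh ratio, and 2 to 7 with one array left out. The count over 6 groups, 7, became 0 with the Gapdh ratio and 6 to 8 with one array left out. In the covariate fit the median SE rose to 0.372, 0.513 and 0.532, since the ratio follows the day. Elsewhere the cause was not tested. The diet and interaction counts were 0 under every setting run.

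Of 813 differences of single members, 730 kept their direction and side of the threshold, 60 were no longer past it, 7 came past it and 16 changed sign. With the mean of kept probe sets Pdia3 gave 0.105, 0.0645 and 0.231, and with the Gapdh ratio 0.0441 (HPpreg) and 0.0629 (HPlact). Under that ratio Calr gave -0.0983 and -0.0157, and Canx -0.0756 and -0.0169. Hsp90b1 in control gave -0.0437 without the Xist arrays, and ranged from -0.0437 (without day 21 replicate 2) to 0.320 with one array left out. In HPlact it gave -0.0561 after quantile normalization, and with one array left out -0.0420 (without day 150 replicate 6) to 0.0930, day 21 replicate 3 also turning it (-0.0377). Pdia4 in HPpreg gave 0.0405 with equal 75th percentiles, and with one array left out -0.235 to 0.222 (without day 150 replicate 3). Equal 75th percentiles moved the share of higher calls with age from 51.2% to 64.1% in HPpreg and from 55.0% to 66.9% in HPlact, from 57.9% to 72.5% for HPpreg against control at day 150, and from 38.0% to 70.6% for HPpreg against HPlact at day 150, where the majority turned. For HPlact against control at day 21 it went from 26.3% to 12.2%, and to 12.5% after quantile normalization.

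With the replicate block (5 groups numbered alike, HPlact at day 150 left out) 4 members rose in control and 4 in HPpreg, where Canx had a limma adjusted p of 0.0752, and 0 in the diet comparisons. The samples share only a number.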
